A study of Phlebiopsis gigantea with 8 samples.

Results

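Transcripts of a glycerol uptake facilitator, an aquaporin and a glycerol kinase were followed in the conifer wood-decay basidiomycete *Phlebiopsis gigantea*. The genes are Phlgi1_99331 (glycerol uptake facilitator), Phlgi1_69030 (aquaporin) and Phlgi1_106139 (glycerol kinase), 3 of the 11892 gene models in the deposited expression table, found there by the protein numbers '99331', '69030' and '106139'. They were selected on their measured RPKM in the 3 media, so their differences between media are described here without a test. Mycelium was grown for 5 days in 250 ml of basal salts. The carbon source was ground loblolly pine wood that had been wetted with acetone and dried but not extracted (NELP, 3 cultures), the same wood after Soxhlet extraction with acetone (ELP, 3 cultures), or glucose (Glc, 2 cultures). Acetone extraction removes extractives, which in pine include resin acids, triglycerides and fatty acids, and both woods had been in contact with acetone. The strain grown for RNA is not named clearly in the methods, and each culture gave 1 library.

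Major intrinsic proteins are membrane channels. Aquaporins in the strict sense pass water, and aquaglyceroporins, to which glycerol facilitators belong, also pass glycerol and other small uncharged solutes down their gradient. Glycerol kinase spends ATP to turn glycerol into glycerol-3-phosphate, which no longer leaves through the channel. Glycerol-3-phosphate is then oxidised to dihydroxyacetone phosphate by a mitochondrial FAD-dependent dehydrogenase and enters glycolysis, or it is acylated to make phospholipids and triglycerides. In a route parallel to the kinase, glycerol dehydrogenase gives dihydroxyacetone, which dihydroxyacetone kinase phosphorylates. Lipases release glycerol and fatty acids from triglycerides, a component of pine extractives.

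In the RefSeq gene table for assembly Phlgi1, Phlgi1_99331 spans positions 95247 to 96936 of scaffold 8 (1690 bp with introns) and Phlgi1_106139 spans 75585 to 77638 of scaffold 67 (2054 bp). Phlgi1_69030 spans 122814 to 123858 (1045 bp) of a scaffold that was not looked up here. The facilitator and the aquaporin carry the InterPro entry of the major intrinsic protein family, and the kinase that of the FGGY carbohydrate kinases.

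Levels are RPKM, reads scaled by the length of the gene and the size of the library, so they can be set side by side between genes. The spacing of the lowest values gave about 10200000 to 18300000 reads per library for NELP, 5900000 to 7200000 for ELP, 7900000 for Glc 1 and 14000000 for Glc 2, so every NELP library was deeper than every ELP library. The Glc libraries stood apart from each other. Over the 10999 genes averaging 1 RPKM or more, Pearson's r of their log2(RPKM + 0.5) was 0.832, against 0.974 to 0.982 within NELP and 0.954 to 0.981 within ELP, and 35.1% of genes differed more than 2-fold between Glc 1 and Glc 2. Glc 2 had an r of 0.869 to 0.878 with the NELP libraries, above its r with Glc 1. These correlations run across genes, which are not independent replicates. Each value against glucose is therefore also given for Glc 1 and Glc 2 alone.

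The facilitator Phlgi1_99331 was among the most abundant transcripts on wood. It had 2432, 2260.1 and 2949 RPKM in NELP, 998, 1326 and 1408 RPKM in ELP, and 38.9 RPKM in Glc 1 and 1229 RPKM in Glc 2. Every NELP library lay above every ELP library. In RPKM as deposited, Glc 2 lay inside the ELP range while Glc 1 was 31.6-fold below Glc 2. Among 11891 gene models with values the transcript held ranks 14 to 20 in NELP, 43 to 81 in ELP, 2809 in Glc 1 and 66 in Glc 2. The mean was 2547 ± 359 in NELP and 1244 ± 217 RPKM in ELP (SD, n = 3 each), a ratio of 2.05. The mean of the Glc libraries, 634 ± 842 RPKM (SD, n = 2), had an SD larger than itself. Against Glc 1 the NELP mean was 65.5-fold and the ELP mean 32.0-fold higher, whereas against Glc 2 the NELP mean was 2.07-fold higher and the ELP mean 1.01 times the Glc 2 level.

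The gap between the Glc libraries was larger for the facilitator than for nearly any other gene. Glc 2 exceeded Glc 1 by 4.96 on the log2(RPKM + 0.5) scale, and only 49 of the 10999 genes (0.445%) had a larger absolute difference. The Glc 1 value rests on at most 517 reads, counted with the full gene span. What set the Glc cultures apart was not tested.

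The aquaporin Phlgi1_69030 separated wood from glucose in every library. Its levels were 1128, 1241 and 898 RPKM in NELP, 596, 523 and 446 RPKM in ELP, and 9.90 RPKM in Glc 1 and 34.2 RPKM in Glc 2. No library of one medium reached into the range of another. The mean was 1089 ± 174 in NELP, 521 ± 74.8 in ELP (SD, n = 3 each) and 22.0 ± 17.2 RPKM in Glc (SD, n = 2). The NELP mean was 2.09-fold the ELP mean. It was 110.0-fold the level of Glc 1 and 31.9-fold that of Glc 2, and the ELP mean was 52.7-fold and 15.3-fold these levels. The lowest value rests on at most 81.4 reads and the Glc 2 value on at most 501. In rank the transcript stood at 58 to 83 in NELP, 161 to 193 in ELP, 6511 in Glc 1 and 3467 in Glc 2.

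The glycerol kinase Phlgi1_106139 separated NELP from both other media. It had 591, 543 and 542 RPKM in NELP, 266, 298 and 298 RPKM in ELP, and 261 RPKM in Glc 1 and 363 RPKM in Glc 2. All NELP libraries were higher than all others, and in RPKM as deposited the ELP libraries lay between the Glc libraries. The mean was 558 ± 28.1 in NELP, 287 ± 18.4 in ELP (SD, n = 3 each) and 312 ± 72.3 RPKM in Glc (SD, n = 2), which makes the NELP mean 1.94-fold the ELP mean. Against the single glucose libraries the NELP mean was 2.14-fold Glc 1 and 1.54-fold Glc 2. Within a medium the kinase varied least of the 3 genes, and Glc 2 was 1.39-fold Glc 1. It ranked between 152 and 161 in NELP, 338 and 469 in ELP, and at 524 in Glc 1 and 308 in Glc 2.

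**Figure D1:**
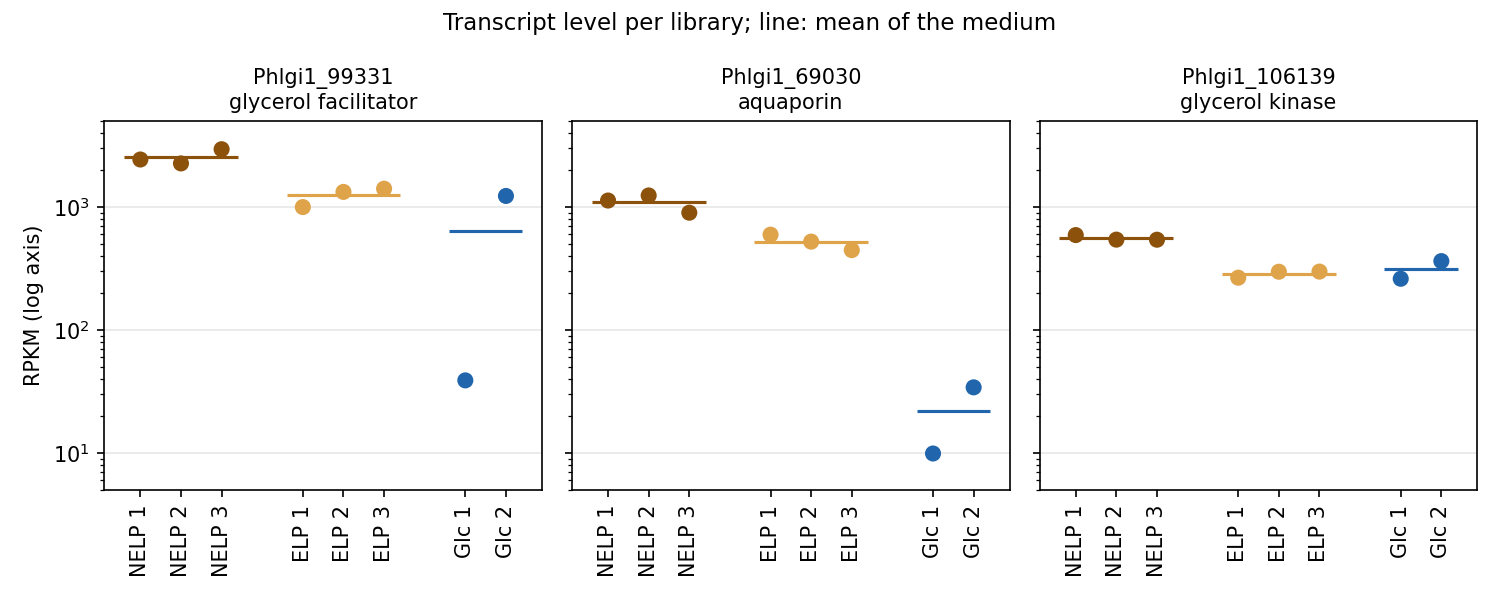
RPKM (log axis) of the facilitator, the aquaporin and the glycerol kinase in each library, with 1 point per library and a line at the mean of each medium. The facilitator point of Glc 2 (1229) sits at the ELP level while that of Glc 1 is at 38.9, both aquaporin points of Glc are below 35 RPKM, and all 3 kinase points of NELP are above every other.

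All 3 genes were thus close to 2-fold higher in NELP than in ELP, and their order over media differed only in where glucose stood. In log2(RPKM + 0.5) the fitted NELP minus ELP difference was 1.04 for the facilitator, 1.06 for the aquaporin and 0.96 for the kinase. The standard errors were 1.04, 0.41 and 0.19 where 1 spread was shared over the 3 media, and 0.19, 0.18 and 0.13 in a fit without Glc, which leaves out the spread between the Glc libraries. All 3 genes had NELP libraries that did not overlap the ELP libraries, as did 16.7% of all tested genes in this direction. In bulk mycelium, more transcript per cell and more of the hyphae that make it cannot be told apart.

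Against glucose the fitted difference depended on the library used. For the facilitator, NELP exceeded Glc by 3.52 ± 1.17 (SE), by 6.01 with Glc 1 alone and by 1.04 with Glc 2 alone. ELP exceeded Glc by 2.48 ± 1.17, by 4.97 with Glc 1 alone and by 0.0014 with Glc 2 alone. For the aquaporin, the NELP difference was 5.83 ± 0.46, or 6.70 and 4.96 with Glc 1 and Glc 2 alone, and the ELP difference was 4.77 ± 0.46, or 5.64 and 3.90. For the kinase, the NELP difference was 0.86 ± 0.21, or 1.10 and 0.62, and the ELP difference was -0.10 ± 0.21, or 0.14 with Glc 1 and -0.34 with Glc 2. NELP lay above both Glc libraries for all 3 genes, as for 49.7% of all tested genes, and ELP did so for the aquaporin alone, as for 51.4%. These 3 contrasts share libraries, so they are not separate pieces of evidence.

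The scale of RPKM bears on the differences from Glc. The median of all tested genes was 0.54 higher in NELP than in Glc and 0.60 higher in ELP than in Glc. With libraries rescaled so that the median gene ratio is equal, these medians were -0.03 and -0.03. The kinase difference then was 0.26 ± 0.19 for NELP against Glc and -0.76 ± 0.19 (SE) for ELP against Glc, the aquaporin differences were 5.24 and 4.12, and the facilitator differences were 2.92 and 1.82. On the rescaled values the kinase thus lay further below Glc in ELP than it lay above Glc in NELP, whereas the aquaporin kept a large difference on both woods. The divisors were 0.65 for Glc 1, 0.785 for Glc 2, 1.04 to 1.13 for NELP and 1.11 to 1.17 for ELP. So divided, Glc 2 lay above every ELP library for the facilitator, and both Glc libraries did so for the kinase. The overlap of ELP and Glc therefore holds for unscaled RPKM only in the kinase. For the facilitator Glc 1 stayed below every ELP library, so ELP then lay between Glc 1 and Glc 2.

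The balance between channel and kinase transcripts was nearly the same in all wood libraries. The facilitator to kinase ratio was 4.12, 4.16 and 5.44 in NELP and 3.75, 4.46 and 4.72 in ELP, and it was 0.149 in Glc 1 and 3.39 in Glc 2. The facilitator to aquaporin ratio was 2.16, 1.82 and 3.28 in NELP, 1.68, 2.54 and 3.16 in ELP, 3.93 in Glc 1 and 36.0 in Glc 2. Both Glc libraries lay outside the wood range in both ratios, Glc 1 farthest in the first and Glc 2 farthest in the second. Across the 8 libraries, Pearson's r of log2(RPKM + 0.5) was 0.835 between facilitator and aquaporin, 0.638 between facilitator and kinase, and 0.554 between aquaporin and kinase. The libraries fall into 3 media, and the facilitator had 38.9 RPKM in Glc 1 against 998 RPKM or more in every other library. Its r values therefore rest largely on that 1 culture, and none of the r values measures agreement between cultures of the same medium.

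The genome table holds 8 gene models of the major intrinsic protein family, of which 6 are not described above. In NELP, the facilitator and the aquaporin held most of the family's transcripts. The summed family made up 0.524, 0.515 and 0.579% of all RPKM in NELP, 0.219, 0.263 and 0.278% in ELP, 0.0488% in Glc 1 and 0.176% in Glc 2. The facilitator alone took 57.2 to 67.1% of the family sum in NELP, 53.9 to 68.4% in ELP, 8.95% in Glc 1 and 80.9% in Glc 2. The paralog Phlgi1_18883 took 74.3% of that sum in Glc 1 and 6.92% in Glc 2.

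A second aquaporin, Phlgi1_23768, resembled the facilitator in its levels. It had 559, 298 and 426 RPKM in NELP, 130, 131 and 61.3 RPKM in ELP, 4.63 RPKM in Glc 1 and 99.5 RPKM in Glc 2. In RPKM as deposited, all NELP libraries were above all others, Glc 2 lay inside the ELP range, and Glc 1 was 21.5-fold below Glc 2. In NELP against Glc it rose by 4.19 ± 1.06 on the log2 scale (SE, limma, adjusted p = 0.023), a difference that was 6.34 with Glc 1 alone and 2.05 with Glc 2 alone. The call was lost when any 1 NELP library was left out (adjusted p from 0.060 to 0.069), in the fit of NELP and Glc alone (adjusted p = 0.073), with array weights (adjusted p = 0.11) and after rescaling (adjusted p = 0.055). ELP against Glc gave 2.17 (adjusted p = 0.13) and NELP against ELP gave 2.03 (adjusted p = 0.33). In the fit without Glc the NELP against ELP difference passed (adjusted p = 0.021).

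The remaining family members had lower levels than these 3 genes in every NELP library, and none of them passed in any of the 3 comparisons. Phlgi1_18883 had 83.8, 86.0 and 74.1 RPKM in NELP, 95.1, 84.0 and 106 RPKM in ELP, 323 RPKM in Glc 1 and 105 RPKM in Glc 2. Its NELP against Glc difference of -1.18 missed the threshold (limma, adjusted p = 0.063) and passed after rescaling (-1.78, adjusted p = 0.048). The difference was -1.99 against Glc 1 alone and -0.37 against Glc 2 alone. Phlgi1_104304 had 12.6, 14.7 and 25.5 RPKM in NELP, 5.24, 10.2 and 4.47 RPKM in ELP, 6.38 RPKM in Glc 1 and 35.4 RPKM in Glc 2, so that Glc 2 was its highest library. Phlgi1_34899 ran from 14.2 to 45.5 RPKM in NELP, 23.7 to 33.5 in ELP, and was 46.3 in Glc 1 and 14.1 in Glc 2. Phlgi1_469915 stayed between 2.05 and 6.15 RPKM over all 8 libraries. Phlgi1_80529, listed between 0 and 0.435 RPKM, was below the filter on low values.

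**Figure D2:**
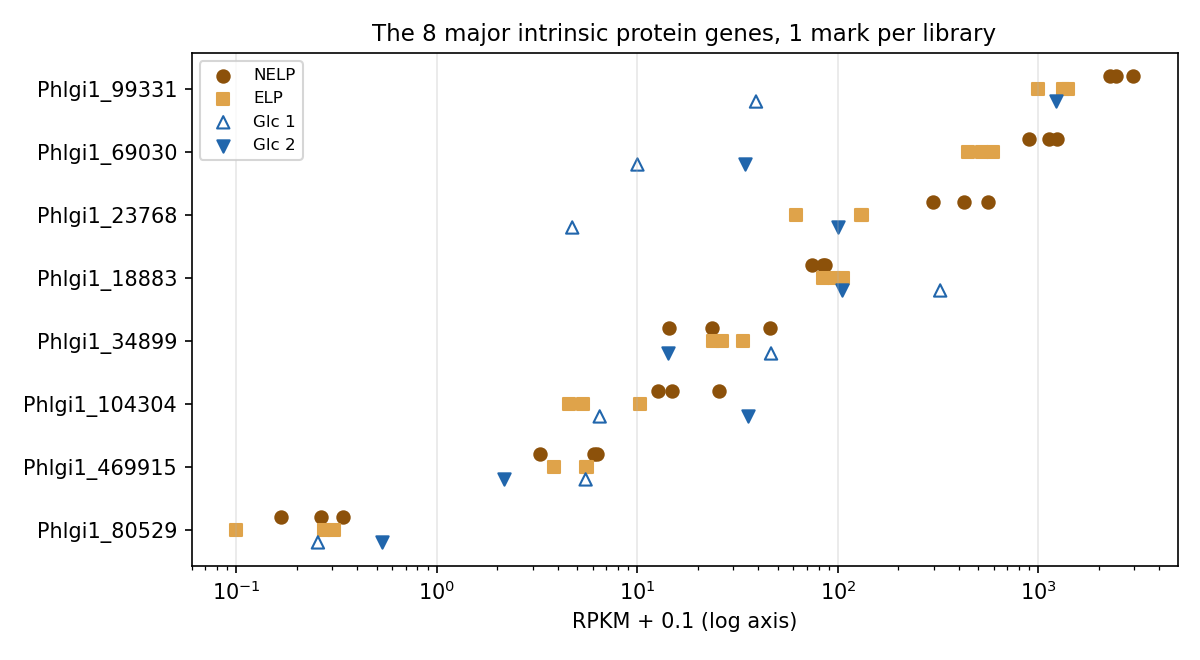
RPKM + 0.1 (log axis) of the 8 major intrinsic protein genes, ordered by mean, with 1 mark per library and separate marks for Glc 1 and Glc 2. The 3 most abundant genes have Glc 1 far to the left of the wood libraries, whereas Phlgi1_18883 has Glc 1 (323 RPKM) to the right of all others.

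Of the 5 tested family members other than the facilitator and the aquaporin, 1 was higher and 0 were lower in NELP than in Glc, against 29.5% of all tested genes higher and 3.67% lower. In ELP against Glc 0 passed, against 37.3% of all genes higher and 5.14% lower, and 0 had an unadjusted p under 0.05, against 45.6% higher and 7.27% lower. In NELP against ELP 0 passed (0 at an unadjusted p under 0.05), against 0.00909% of all genes higher and 0% lower. After rescaling, 727 genes were higher and 766 lower in NELP than in Glc, in place of 3247 and 404, and 1183 were higher and 1252 lower in ELP than in Glc, in place of 4103 and 565. The median log2 difference of the 5 genes was 0.14 in NELP against Glc, 0.098 in ELP against Glc and 0.019 in NELP against ELP, beside 0.54, 0.60 and -0.07 over all tested genes.

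Genes of the family that share a domain entry differed widely in level. The aquaporin Phlgi1_69030 shares its domain entry, named for a yeast protein, with Phlgi1_34899 and Phlgi1_18883. The facilitator shares an entry named for a *Photobacterium profundum* protein with Phlgi1_104304, and Phlgi1_23768 shares one named for a *Neurospora crassa* protein with Phlgi1_80529. In NELP the abundant gene of each pair or trio exceeded its partners in every library. The same held in ELP and, for the facilitator and Phlgi1_23768, in both Glc libraries. In Glc 1 and Glc 2 the aquaporin (9.90 and 34.2 RPKM) lay below Phlgi1_18883 (323 and 105 RPKM). It also lay below Phlgi1_34899 in Glc 1 (46.3 RPKM) but above it in Glc 2 (14.1 RPKM). The rule by which reads shared between these paralogs were assigned was not found in the methods.

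A list of 15 other glycerol-related genes covered enzymes of glycerol, glycerol-3-phosphate and dihydroxyacetone, triose phosphate isomerase, and genes annotated as phospholipid or glycerol acyltransferases. Of these 15, 4 rose and 0 fell in NELP against Glc, where 29.5% of all tested genes were higher and 3.67% lower. In ELP against Glc 6 rose and 1 fell, where 37.3% of all genes were higher and 5.14% lower. After rescaling the split turned, to 1 higher and 2 lower in NELP against Glc and to 0 higher and 3 lower in ELP against Glc. Over all 10999 genes it turned as well, to 727 higher and 766 lower in NELP against Glc and to 1183 and 1252 in ELP against Glc. The median difference of the 15 was 0.16 in NELP against Glc and 0.18 in ELP against Glc, below the medians of all tested genes given above. In NELP against ELP 0 passed, and at an unadjusted p under 0.05 the count was 1 higher and 2 lower, against 7.23% of all genes higher and 9.12% lower. In the fit without Glc, 2 were higher and 2 lower, where 6.07% of all genes were higher and 4.3% lower. Leaving out a Glc library drops the spread between the Glc libraries from the fit, and the Glc arm is then 1 library, assumed to vary like the wood libraries. Counts of calls from such a fit are therefore not given. With array weights, which give less weight to libraries far from their group, 0 of the 15 passed in NELP against Glc and 0 in ELP against Glc. Of the 10999 genes, 112 were then higher and 26 lower in NELP against Glc, and 160 higher and 33 lower in ELP against Glc.

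The step after the kinase rose on both woods. Phlgi1_90548, an FAD-dependent glycerol-3-phosphate dehydrogenase, had 142, 167 and 189 RPKM in NELP, 107, 127 and 171 RPKM in ELP, 50.9 RPKM in Glc 1 and 34.0 RPKM in Glc 2. Both Glc libraries lay below all wood libraries, and NELP and ELP overlapped. It rose by 1.97 ± 0.29 in NELP against Glc (SE, limma, adjusted p = 0.0055) and by 1.66 in ELP against Glc (adjusted p = 0.0054). With array weights both calls were lost (adjusted p = 0.087 in each), and after rescaling ELP against Glc no longer passed (1.00, adjusted p = 0.066). In RPKM as deposited, kinase and dehydrogenase thus differed in which media overlapped: ELP and Glc for the kinase, NELP and ELP for the dehydrogenase. After rescaling, the kinase in ELP lay below both Glc libraries and no longer overlapped them. Their summed level was 733, 710 and 730 RPKM in NELP, 373, 424 and 469 RPKM in ELP, and 312 and 397 RPKM in Glc 1 and Glc 2.

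The parallel route through dihydroxyacetone was highest in a single glucose library. Phlgi1_107231, an iron-containing alcohol dehydrogenase annotated as glycerol dehydrogenase, had 289, 229 and 260 RPKM in NELP, 267, 235 and 226 RPKM in ELP, 2653 RPKM in Glc 1 and 186 RPKM in Glc 2. Glc 1 was 14.3-fold Glc 2, and the gene held rank 39 in Glc 1 and rank 609 in Glc 2. The dihydroxyacetone kinase Phlgi1_116937 had 95.3, 64.2 and 91.8 RPKM in NELP, 42.1, 47.4 and 56.5 RPKM in ELP, 251 RPKM in Glc 1 and 21.2 RPKM in Glc 2, an 11.8-fold difference between the Glc libraries. Triose phosphate isomerase, Phlgi1_102987, which links dihydroxyacetone phosphate to lower glycolysis, had 63.4 to 67.4 RPKM in NELP, 49.3 to 57.7 RPKM in ELP, 338 RPKM in Glc 1 and 48.9 RPKM in Glc 2. None of these 3 genes passed against Glc (limma, adjusted p from 0.15 to 0.89). Set against Glc 1 alone, a single library, the log2 differences of Phlgi1_107231, Phlgi1_116937 and Phlgi1_102987 were -3.36, -1.60 and -2.35 for NELP and -3.45, -2.36 and -2.66 for ELP. Set against Glc 2 alone they were 0.47, 1.93 and 0.42 for NELP and 0.38, 1.17 and 0.12 for ELP, so the direction turned with the glucose library used.

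These genes ran opposite to the facilitator within glucose. The Glc 2 minus Glc 1 difference on the log2 scale was -3.83 for Phlgi1_107231, -3.53 for Phlgi1_116937 and -2.78 for Phlgi1_102987, beside 4.96 for the facilitator, 4.29 for Phlgi1_23768, 1.74 for the aquaporin and 0.48 for the kinase. Of all tested genes, 1.55% had a larger absolute difference than Phlgi1_107231, 2.08% than Phlgi1_116937, 14.0% than the aquaporin and 65.6% than the kinase. Summed over glycerol dehydrogenase and dihydroxyacetone kinase, the level was 385, 293 and 352 RPKM in NELP, 309, 283 and 283 RPKM in ELP, 2904 RPKM in Glc 1 and 207 RPKM in Glc 2. The ratio of glycerol kinase to dihydroxyacetone kinase was 6.20, 8.45 and 5.90 in NELP, 6.32, 6.28 and 5.28 in ELP, 1.04 in Glc 1 and 17.1 in Glc 2.

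**Figure D3:**
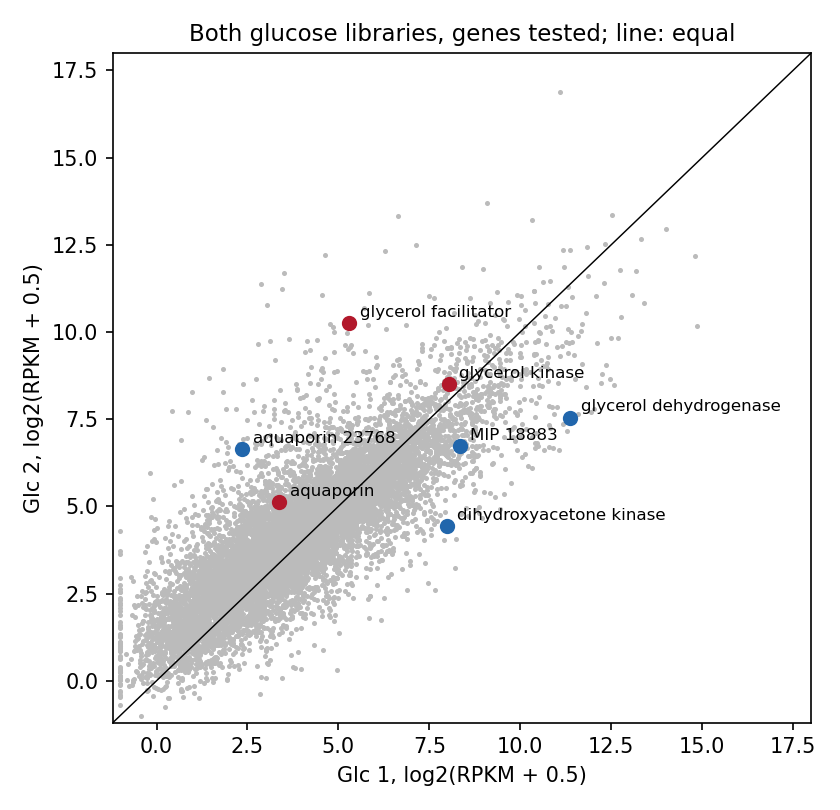
Level in Glc 2 against level in Glc 1, both as log2(RPKM + 0.5), for the 10999 tested genes (grey) with a line of equal levels. The facilitator lies 4.96 above the line and the glycerol kinase 0.48 above it, while the annotated glycerol dehydrogenase and the dihydroxyacetone kinase lie at -3.83 and -3.53 from it.

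**Figure D4:**
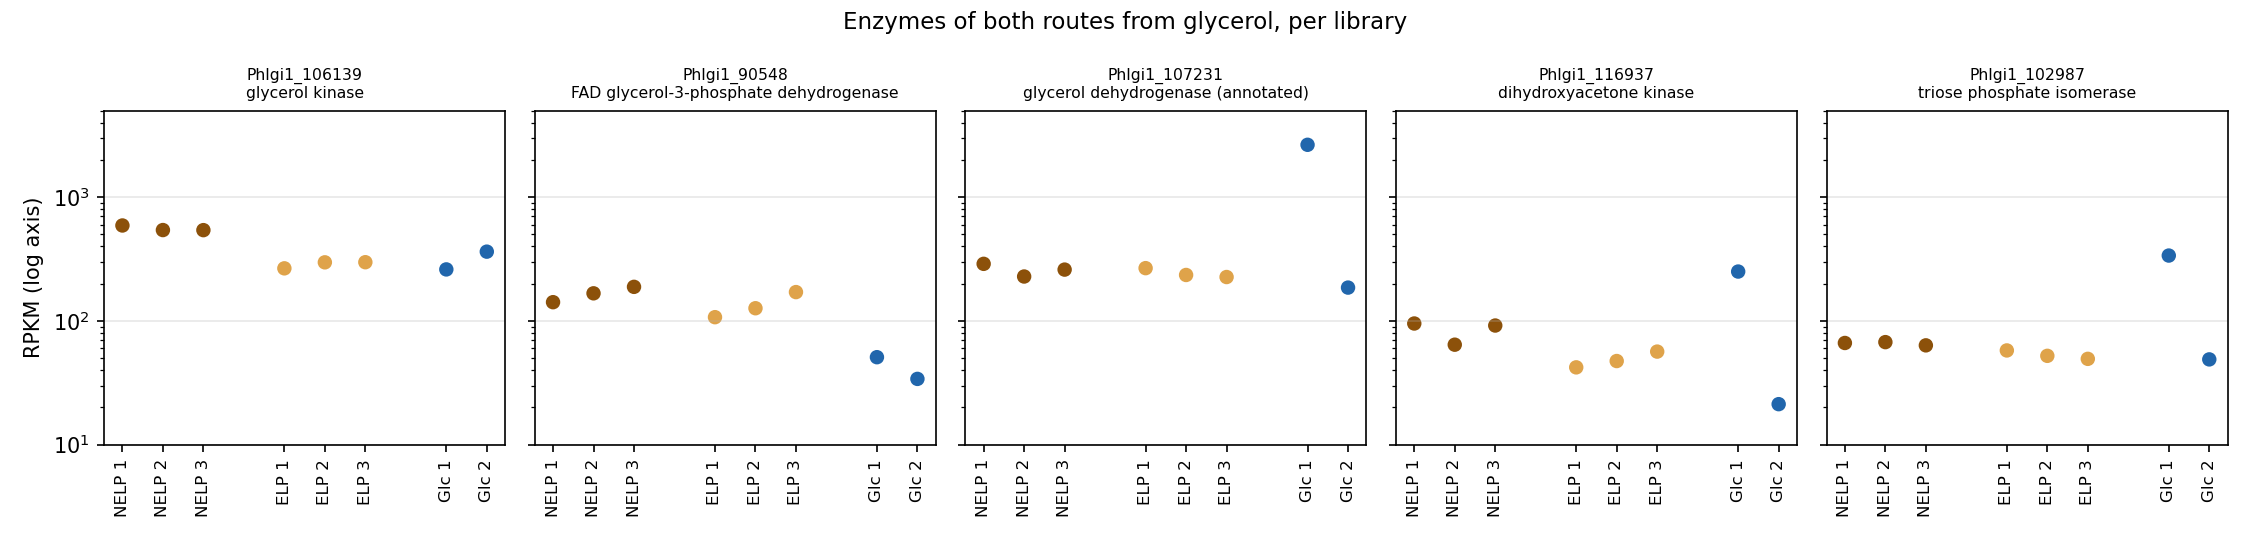
RPKM (log axis) of the glycerol kinase, the FAD glycerol-3-phosphate dehydrogenase, the annotated glycerol dehydrogenase, the dihydroxyacetone kinase and triose phosphate isomerase, with 1 point per library. The last 3 stand highest in Glc 1 (2653, 251 and 338 RPKM), and the FAD dehydrogenase stands lowest in both Glc libraries.

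Genes that make, acylate or release glycerol-3-phosphate gave a mixed picture. Phlgi1_124068, an NAD-dependent glycerol-3-phosphate dehydrogenase, which can form glycerol-3-phosphate from dihydroxyacetone phosphate, had 11.3, 15.0 and 12.5 RPKM in NELP, 19.6, 20.3 and 27.2 RPKM in ELP, and 11.7 and 10.3 RPKM in Glc 1 and Glc 2. It rose in ELP against Glc (0.98, limma, adjusted p = 0.014) and its NELP against ELP difference of -0.76 passed in the fit without Glc (adjusted p = 0.045) but not over 3 media (adjusted p = 0.18). Glycerophosphodiester phosphodiesterases free glycerol-3-phosphate from deacylated phospholipids. Phlgi1_33894, which the InterPro column places in that family, had 43.1, 44.9 and 39.3 RPKM in NELP, 18.9, 15.8 and 13.0 RPKM in ELP, and 58.6 and 37.0 RPKM in Glc 1 and Glc 2, so that ELP lay below every other library. It fell by 1.54 in ELP against Glc (adjusted p = 0.0053), and its NELP against ELP difference of 1.40 passed in the fit of those woods alone (adjusted p = 0.0088) and not over 3 media (adjusted p = 0.086). The second phosphodiesterase, Phlgi1_236991, rose by 1.26 in NELP against Glc (adjusted p = 0.011) and by 1.27 in ELP against Glc (adjusted p = 0.0070).

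Acyltransferases attach fatty acids to glycerol-3-phosphate or its acylated form. Phlgi1_116689, named glycerol-3-phosphate acyltransferase, had 14.9, 16.2 and 13.1 RPKM in NELP, 32.0, 29.9 and 23.4 RPKM in ELP, and 14.6 and 20.1 RPKM in Glc 1 and Glc 2, with every ELP library above all others. It rose by 0.70 in ELP against Glc (limma, adjusted p = 0.046), a call that was lost without any 1 of 6 libraries (adjusted p from 0.069 to 0.13), without NELP in the fit (adjusted p = 0.13) and after rescaling (0.056, adjusted p = 0.86). Phlgi1_103379 rose by 1.32 in NELP (adjusted p = 0.010) and 1.34 in ELP (adjusted p = 0.0066) against Glc, and Phlgi1_74780 by 0.80 (adjusted p = 0.039) and 1.15 (adjusted p = 0.0094). The NELP call of Phlgi1_74780 was lost when any 1 NELP or ELP library was left out (adjusted p from 0.060 to 0.11). Its NELP difference was 1.16 with Glc 1 alone and 0.44 with Glc 2 alone. After rescaling none of the rises of Phlgi1_103379, Phlgi1_74780, Phlgi1_236991 and Phlgi1_124068 passed (adjusted p from 0.057 to 0.48). Phlgi1_19125, Phlgi1_21047, Phlgi1_38237 and Phlgi1_34495 passed in none of the 3 comparisons. Phlgi1_87223, whose function name says acyltransferase while its InterPro entry is that of a TEA/ATTS transcription factor domain, had 121 to 132 RPKM in NELP, 38.8 to 68.2 RPKM in ELP, 8.89 RPKM in Glc 1 and 199 RPKM in Glc 2, and passed in the fit without Glc.

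Of 9 lipase genes, 8 were tested, and 3 rose and 1 fell in NELP against Glc (29.5% and 3.67% of all tested genes) while 4 rose and 1 fell in ELP against Glc (37.3% and 5.14% of all tested genes). The lipase that fell was Phlgi1_129172, by 1.85 in NELP (limma, adjusted p = 0.049) and by 3.17 in ELP (adjusted p = 0.0070). Its NELP call was lost when any 1 NELP or ELP library was left out (adjusted p from 0.058 to 0.14) and with array weights (adjusted p = 0.32). The call was also lost in the fit of NELP and Glc alone (adjusted p = 0.095), with a pseudocount of 0.1 (0.056) and with no filter (0.082). The NELP difference of Phlgi1_129172 was -0.93 with Glc 1 alone and -2.77 with Glc 2 alone. Phlgi1_19028, a class 3 lipase, had 1878, 1477 and 2480 RPKM in NELP, 324, 271 and 233 RPKM in ELP, and 13.6 and 34.7 RPKM in Glc 1 and Glc 2. Like the aquaporin it had no overlap between media. Its NELP mean was 7.05-fold the ELP mean, against 2.09-fold for the aquaporin, and the fitted NELP minus ELP difference of 2.80 had an adjusted p of 0.058 over 3 media and 0.0053 in the fit without Glc (limma). Phlgi1_36659 had 304, 240 and 319 RPKM in NELP, 121, 76.2 and 68.5 RPKM in ELP, and 84.7 and 376 RPKM in Glc 1 and Glc 2, with Glc 2 above all wood libraries (NELP minus ELP 1.73, adjusted p = 0.20, or 0.013 without Glc). Phlgi1_99110, of the type B carboxylesterases, had 17.0, 15.4 and 34.5 RPKM in NELP, 20.4, 68.0 and 240.2 RPKM in ELP, and 3.13 and 5.27 RPKM in Glc 1 and Glc 2, with a NELP minus ELP difference of -1.71 (adjusted p = 0.33).

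The genes most like each of the 3 in pattern were sought among 1012 genes averaging 10 RPKM or more and carrying a function name, by Pearson's r of log2(RPKM + 0.5) over the 8 libraries. For the facilitator they were the GH31 alpha-glucosidase Phlgi1_127611 (r = 0.989), the vacuolar ATP synthase Phlgi1_108388 (0.988), the GH61 Phlgi1_35240 (0.981), methanol oxidase Phlgi1_120749 (0.981) and tripeptidyl peptidase Phlgi1_88390 (0.975). Methanol oxidase, a flavoenzyme that oxidises methanol with release of hydrogen peroxide, showed the same split of glucose cultures, with 10760, 9787 and 10918 RPKM in NELP, 5020, 7003 and 9810 RPKM in ELP, 99.5 RPKM in Glc 1 and 10342 RPKM in Glc 2. The GH31 gene had 59.8, 62.6 and 64.4 RPKM in NELP, 34.3, 32.5 and 27.5 RPKM in ELP, 1.46 RPKM in Glc 1 and 25.5 RPKM in Glc 2.

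For the aquaporin they were phosphatidate phosphatase Phlgi1_81189 (r = 0.991), which forms diacylglycerol, Phlgi1_109641 named Mucin-2 (0.991), the histone methyltransferase Phlgi1_76627 (0.990), cellobiose dehydrogenase Phlgi1_99876 (0.989) and the GH3 Phlgi1_127564 (0.989). Cellobiose dehydrogenase, an extracellular enzyme that oxidises cellobiose, had 645, 618 and 546 RPKM in NELP, 453, 338 and 229 RPKM in ELP, and 9.84 and 14.5 RPKM in Glc 1 and Glc 2. Like the aquaporin, it was low in both Glc libraries and lower in every ELP than in every NELP library.

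For the kinase they were farnesyltransferase Phlgi1_130277 (r = 0.967), the thiol-specific monooxygenase Phlgi1_89576 (0.951), the PL14 polysaccharide lyase Phlgi1_105611 (0.951), the GH11 Phlgi1_21241 (0.941), a family of xylanases, and cytochrome P450 Phlgi1_119094 (0.936). The PL14 gene had 435, 428 and 488 RPKM in NELP, 228, 244 and 252 RPKM in ELP, and 157 and 274 RPKM in Glc 1 and Glc 2. High r was common where media differ strongly or, for the facilitator, where Glc 1 alone is far below the rest. An r over 0.9 was found for 14.0% of all tested genes with the aquaporin, 8.17% with the facilitator and 1.01% with the kinase.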

How the data were processed

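Poly-A RNA of 8 cultures (3 NELP, 3 ELP, 2 Glc) was sequenced as multiplexed libraries on an Illumina HiSeq2000. Per the labels CASAVA 1.8.2 was used, and the authors mapped reads with SeqNGen and deposited RPKM values made in QSeq, in which reads are divided by the length of the gene and the size of the library. Read totals were not given in the sources used here. Reads per library were estimated from the smallest RPKM steps times gene length in the RefSeq table of assembly Phlgi1, which matched 11824 gene models, and are approximate. Of the value columns, all were assigned to a library.

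Values were compared as log2(RPKM + 0.5) in limma 3.58.1 (R 4.3.3), in 1 fit over the 3 media, for the 10999 genes averaging 1 RPKM or more. p values were adjusted by Benjamini-Hochberg over these genes, with a threshold of 0.05. Tables were made with Python 3.11.15 and pandas 2.3.3. Replicates are separate cultures, and replicate numbers did not pair them.

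The 3 genes and the gene lists were chosen with earlier results of these data known, so no p value is given for the 3 genes. Named are those 3, all other major intrinsic protein and glycerol enzyme genes, the 3 lipases with the largest NELP against ELP change, the lipase that fell against Glc, and the 5 genes most like each of the 3. Lists come from function names, InterPro entries and enzyme numbers in the deposited table, and the lipases from the study. Alternatives were pseudocounts of 0.1 and 1, no filter or a filter at 10 RPKM, rescaling by the median of gene ratios, array weights, a fit of only the media compared, a replicate block, and leaving out each library.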

Additional observations from a re-analysis of the deposited data

How the results depend on the processing

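The NELP against ELP differences of the facilitator, the aquaporin and the kinase kept their direction in all alternatives. With 1 library left out they were 0.89 to 1.14, 0.95 to 1.19 and 0.90 to 0.99. They moved by less than the residual SD of the fit over 3 media, which was 1.58, 0.58 and 0.17. For the facilitator that SD takes in the gap between the Glc libraries and exceeds the difference itself, so it is a loose limit. Against Glc, leaving out 1 library gave 1.04 (without Glc 1) to 6.01 (without Glc 2) for the facilitator in NELP and 0.0014 to 4.97 in ELP, 4.96 to 6.70 and 3.90 to 5.64 for the aquaporin, and 0.62 to 1.10 and -0.34 to 0.14 for the kinase, whose ELP against Glc value changes sign without Glc 2. Rescaling gave 2.92 and 1.82 for the facilitator, 5.24 and 4.12 for the aquaporin and 0.26 and -0.76 for the kinase (NELP and ELP against Glc).

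Counts of calls moved as follows. With array weights, NELP against Glc had 0 other family members, 0 glycerol enzymes and 1 lipase, ELP against Glc had 0 enzymes and 1 lipase, and NELP against ELP had 1, 6 and 3 of the same lists. Of the 10999 genes, 112 were then higher and 26 lower in NELP against Glc, and 160 and 33 in ELP against Glc. In NELP against ELP 1751 were higher and 2168 lower, so calls were common among all genes in that setting. The fit of only the media compared gave 0 family members and 2 enzymes in NELP against Glc, 4 enzymes in ELP against Glc, and 1, 4 and 2 in NELP against ELP. Over all genes it gave 825 higher and 120 lower of 10977 in NELP against Glc, and 1906 and 249 of 10994 in ELP against Glc. In NELP against ELP it gave 666 higher and 472 lower of 10970. Rescaling gave 1 family member and 3 enzymes in ELP against Glc, all lower, and in NELP against Glc 1 lower family member in place of 1 higher, and 1 higher and 2 lower enzymes in place of 4 higher. Over all 10999 genes it gave 727 higher and 766 lower in NELP against Glc, and 1183 and 1252 in ELP against Glc. With 1 library left out, family members numbered 0 to 2, enzymes 3 to 9 and lipases 3 to 5 in NELP against Glc, 0 to 2, 6 to 12 and 5 to 6 in ELP against Glc, and 0 to 1, 0 to 4 and 0 to 2 in NELP against ELP. The highest enzyme counts against Glc came without Glc 2, which leaves 1 Glc library assumed to vary like the wood libraries. Those of NELP against ELP came when Glc 1 or Glc 2 was left out. Calls over all genes were also most common in these settings. With 1 wood library left out, all-gene calls of NELP against Glc were fewest without NELP 2 (954 higher, 162 lower of 11003). They were most common without ELP 3 (2711 and 323 of 11003). All-gene calls of ELP against Glc were then fewest without ELP 2 (2579 and 344 of 10996). They were most common without NELP 3 (3504 and 452 of 11006).

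Single genes changed sign where Glc 1 or Glc 2 was left out. Phlgi1_107231 ran from -3.36 to 0.47 in NELP and -3.45 to 0.38 in ELP against Glc, Phlgi1_102987 from -2.35 to 0.42 and -2.66 to 0.12, and Phlgi1_116937 from -1.60 to 1.93 and -2.36 to 1.17. Rescaling turned Phlgi1_116937 in NELP against Glc to -0.43. The causes were not tested.

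The deviations of equal replicate numbers from their media correlated at 0.40, -0.15 and 0.50 between NELP and ELP, so the numbers were not treated as pairs. With a replicate block the calls over all genes were 2592 higher and 289 lower in NELP against Glc, 3766 and 456 in ELP against Glc, and 2 and 0 in NELP against ELP. Of the gene values in the text, 2 calls of NELP against Glc were then lost in limma. These were the rise of Phlgi1_74780 (adjusted p = 0.063) and the fall of Phlgi1_129172 (adjusted p = 0.092). The aquaporin value of Glc 1, at 9.90 RPKM, rests on at most 81.4 reads. With 2 or 3 libraries per medium no single library can be tested as standing apart.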
